A study of Mus musculus with 6 samples.

Results

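The lysosome is the acidic compartment in which a cell breaks down proteins, lipids and sugars. The transcripts that encode its soluble hydrolases and its membrane proteins were measured in primary mouse embryonic fibroblasts (pMEFs) labelled wild type or knockout for HAT1, the enzyme that acetylates new histone H4 ahead of its deposition on DNA. The gene set was given by name and held 46 genes, all of which were present among the 17512 genes of the count table and passed the filter on low counts. It comprised 12 cathepsins and related proteases, 8 genes of sphingolipid breakdown, 3 of cholesterol release, 6 of glycosaminoglycan breakdown, 4 of glycogen and glycoprotein breakdown, 4 mutated in the ceroid lipofuscinoses, 8 membrane proteins and Tfeb, a transcription factor of lysosomal genes.

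Total RNA was sequenced from 6 cell lines on the C57bl6 strain background, and no line was given a treatment. HAT1 WT lines 36, 47 and 78 carried the intact gene and HAT1 KO lines 33, 41 and 72 were labelled as knocked out for it. The lines were grown from mid-gestation embryos after the internal organs had been removed, so that a culture can hold every cell type that attaches and survives from the remaining tissue. The labels do not say which lines were littermates, and p-values measure the spread between these 6 lines.

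Lysosomal hydrolases are made in the endoplasmic reticulum, tagged with mannose 6-phosphate and delivered to an organelle that a proton pump keeps acidic. The pool is in use in nearly all cells, but professional phagocytes such as macrophages hold more of it and add proteases of their own, among them cathepsin S, which trims the invariant chain of MHC class II, and cathepsin C, which activates the serine proteases of myeloid granules. TFEB and its relatives TFE3 and MITF bind a palindromic E-box, the CLEAR element, near the start of many lysosomal genes, and PU.1 (Spi1) binds a purine-rich site at many genes of the macrophage lineage.

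The promoters shown are those of the 5 lysosomal genes that hold the CLEAR letters and that of Ctss, which, like Ctsc, is a macrophage-rich cathepsin with the PU.1 letters. The letters do not divide the genes into separate kinds, since Gla holds both motifs. The sequences come from RefSeq windows of 250 bases before to 50 bases after each gene start on GRCm38.p6, read on the strand of the gene. The letters TCACGTGA read the same on both strands and contain the E-box core CACGTG. The stretches printed hold them with flanking bases and lay at chrX:134601166-134601255 (minus strand, Gla), chr2:164833733-164833811 (plus strand, Ctsa), chr7:142387892-142387953 (minus strand, Ctsd), chr8:3500446-3500507 (plus strand, Mcoln1) and chr7:126583324-126583385 (minus strand, Cln3). The Ctss stretch lay at chr3:95526757-95526818 (plus strand) and holds the reverse complement of GAGGAAGT, the PU.1 letters searched. Capitals mark the matched motif, which occurs at 2 places in the stretches of Gla and Ctsa.
Gla: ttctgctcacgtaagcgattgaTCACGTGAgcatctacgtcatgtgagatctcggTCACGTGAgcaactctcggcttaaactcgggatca
Ctsa: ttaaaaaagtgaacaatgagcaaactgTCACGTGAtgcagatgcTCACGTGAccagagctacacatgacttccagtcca
Ctsd: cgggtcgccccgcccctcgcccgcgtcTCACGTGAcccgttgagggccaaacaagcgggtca
Mcoln1: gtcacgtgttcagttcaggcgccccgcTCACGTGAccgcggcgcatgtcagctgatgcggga
Cln3: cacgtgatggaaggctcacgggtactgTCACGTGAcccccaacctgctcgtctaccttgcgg
Ctss: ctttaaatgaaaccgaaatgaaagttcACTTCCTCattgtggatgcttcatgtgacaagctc

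A window was found for 42 of the 46 lysosomal genes, and none for Asah1, Ctsb, Ctsh and Npc1. On either strand, CACGTG occurred in 13 of the 42 genes (31.0%), which were Arsa, Cln3, Ctsa, Ctsd, Ctsf, Ctsl, Gaa, Gla, Lamp1, Lgmn, Mcoln1, Naglu and Sgsh, against 8.09% of all 27025 genes with a window of this length. The longer TCACGTGA occurred in 5 of the 42 (11.9%), against 1.12% of all genes. GAGGAAGT occurred in 4 of the 42 (9.52%), which were Ctsc, Ctss, Gla and Gusb, against 3.69% of all genes. These matches are letters in a window and were not measured as binding.

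Before the lysosomal genes were compared, the lines were checked against their labels. Libraries held between 67720628 and 98786746 counts, and TMM scaling factors stayed between 0.988 and 1.01. Hat1 had 17.4, 23.0 and 20.1 CPM (counts relative to the library size, scaled by TMM) in WT lines 36, 47 and 78 and 10.2, 10.0 and 10.3 CPM in KO lines 33, 41 and 72, a log2 fold change of -0.99 (SE 0.12, edgeR adjusted p = 0.0376). The KO lines thus kept 50.4% of the WT level of the transcript, and the position of the deletion within the gene was not used here. Of 8 fibroblast markers, collagen Col1a1 had a mean of 34804 CPM in WT, and the summed level lay between 60775 and 68615 CPM in WT and at 78264, 67651 and 46258 CPM in KO lines 33, 41 and 72 (100.5% of WT on average). Of these markers 5 had a lower mean in KO, and Thy1 (log2 fold change -0.31) had an unadjusted p under 0.05. WT lines 36 and 47 stood apart from the other 4 lines by their Y-linked counts, with 13788 and 12841 counts against 231 in WT line 78 and at most 8 in a KO line. The X-linked Xist had 94 and 1179 counts in WT lines 36 and 47, 29520 in WT line 78 and between 11233 and 13722 in the KO lines. Sex is thus partly confounded with genotype, and the 2 cannot be fully told apart in the comparisons of all 6 lines. Values with the 4 low Y-linked lines alone are therefore given as well for the count of lower means, the median and the genes with the smallest p. In that comparison WT line 78 is the only WT line. The other counts come mostly from all 6 lines, and the part of sex in them was not tested. The sequencing lanes were 8, 6 and 7 for the WT lines and 6, 7 and 6 for the KO lines, so that lanes 6 and 7 each held both genotypes.

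The lysosomal genes were lower in HAT1 KO than in HAT1 WT cells in most cases, and with edgeR none of them passed the adjusted threshold. With DESeq2 13 of the 46 and 869 of all 14773 tested genes passed it, and with limma voom 8 and 267. The edgeR fit passed 78 of all tested genes. Of the 46 genes, 42 had a lower mean in KO, with a median log2 fold change of -0.24 and a range from -0.997 for Galc, the galactocerebrosidase that degrades myelin lipids, to 0.22 for Smpd1, the acid sphingomyelinase. Over all 14773 genes tested the median was 0.01 and 48.5% had a lower mean. The 4 genes with a higher mean were Smpd1, Cd63, Fuca1 and Laptm4a.

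With edgeR 0 of the 46 genes had an adjusted p under 0.05, where 0.528% of all tested genes did, and the smallest adjusted p was 0.0503 for Cln3. At an unadjusted p under 0.05, 16 of the 46 were lower in KO, against 8.77% of all genes, and 0 were higher, against 5.88% of all genes. The count of 16 was 26 without KO line 72, where 9.47% of all genes were lower at that threshold. It lay between 14 and 22 without any other single line, where between 6.11% and 8.25% of all genes were. With the 4 low Y-linked lines alone 32 of 46 were lower, and the median was -0.06, against 0.02 over all genes. The share of all genes with a lower mean in those 4 lines was not computed. The 8 genes with the smallest p in the 6 lines had these log2 fold changes in those 4 lines: Cln3 (-0.61), Lgmn (-0.62), Laptm5 (-0.50), Ctso (-0.49), Manba (-0.44), Ctss (-0.41), Man2b1 (-0.40) and Npc1 (-0.31).

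The 16 genes were Cln3, Manba, Npc1, Ctss, Man2b1, Lgmn, Laptm5, Ctso, Lipa, Neu1, Gusb, Galc, Ctsb, Idua, Hexa and Grn. Each of them had all 3 KO lines below all 3 WT lines, which was also true of Scarb2 and so of 17 of 46 genes, against 12.4% of all genes. A difference of at least 1.5-fold together with an unadjusted p under 0.05 was met by 8 genes (Cln3, Ctss, Man2b1, Lgmn, Laptm5, Lipa, Galc and Ctsb), against 4.62% of all genes in the same direction. Since the 16 genes had all 3 KO lines below all 3 WT lines, they were necessarily lower within lane 6 and within lane 7 as well. Over the 46 genes 38 were lower in lane 6, 35 in lane 7 and 30 in both. Lane 7 held only WT line 78 and KO line 41, and the shares of all genes by lane were not computed.

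**Figure D1:**
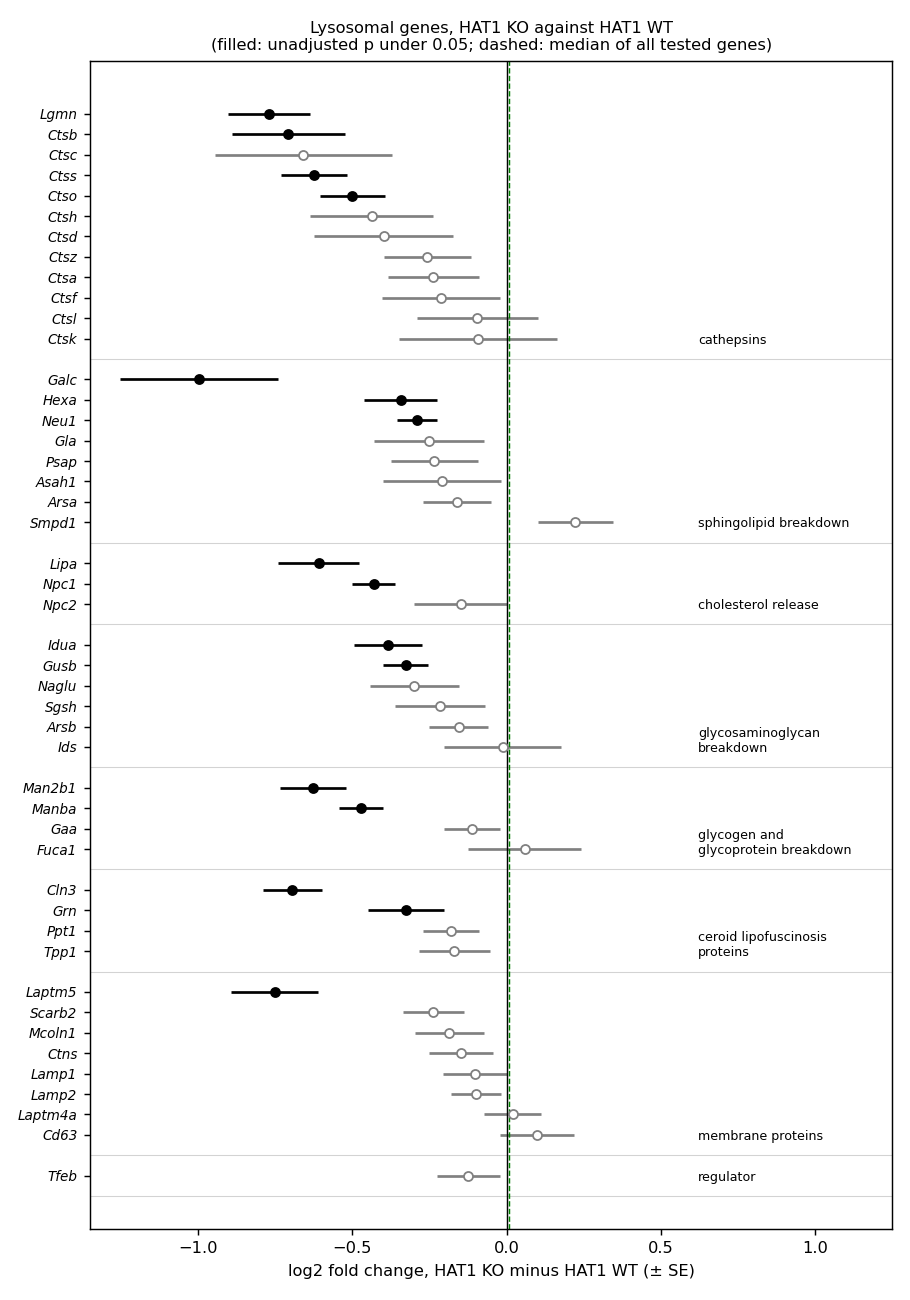
Log2 fold change of each of the 46 lysosomal genes, HAT1 KO minus HAT1 WT, with its standard error (x axis), grouped by role (y axis), filled where the unadjusted p was under 0.05. All 16 filled points lie left of 0, and the dashed median of all tested genes lies at 0.01. None of the 46 passed an adjusted p of 0.05 in this edgeR fit (78 of all tested genes did). With DESeq2 13 did (869 of all tested genes) and with limma voom 8 did (267 of all tested genes).

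The lines of a genotype were not interchangeable. The summed level of the 46 genes was 17702, 16503 and 13809 CPM in WT lines 36, 47 and 78 and 11542, 12929 and 13833 CPM in KO lines 33, 41 and 72. The KO mean was 79.8% of the WT mean (12768 ± 1154 against 16005 ± 1994 CPM, SD, n = 3), but KO line 72 lay above WT line 78, so the summed levels of the genotypes overlapped. WT line 36 had the highest level of the WT lines in 38 genes and WT line 78 the lowest in 35, whereas KO line 33 was the lowest KO line in 32 genes and KO line 72 the highest in 26. In all, lysosomal transcripts made up between 1.15% and 1.77% of a library.

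**Figure D2:**
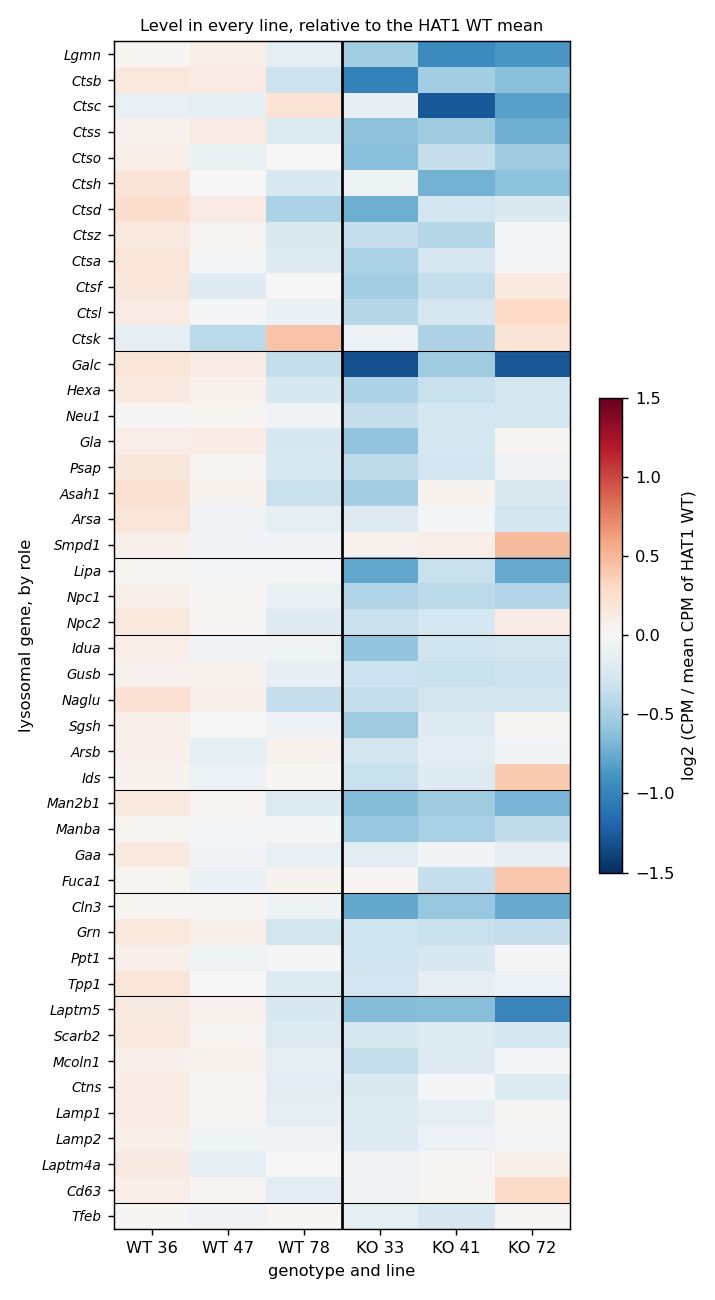
Level of each of the 46 lysosomal genes (y axis, grouped by role) in each of the 6 lines (x axis), as log2 of CPM over the mean CPM of HAT1 WT. The KO columns are mostly on the lower side, with WT line 78 the lowest WT line in 35 genes and KO line 72 the highest KO line in 26.

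The 12 cathepsins and related proteases, which cut proteins inside the lysosome, were all lower on average in KO, with a median log2 fold change of -0.42. Their summed level in KO was 71.4% of that in WT, and 4 of the 12 were lower with an unadjusted p under 0.05, against 8.77% of all genes. Lgmn, the asparaginyl endopeptidase that processes other cathepsins, had 409, 427 and 363 CPM in the WT lines and 278, 207 and 218 CPM in the KO lines (log2 fold change -0.77, SE 0.13, adjusted p = 0.0809). Its groups did not overlap, and it differed by -0.78 in lane 6 and -0.81 in lane 7.

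Ctsb, the cysteine protease cathepsin B, had 2742, 2671 and 1973 CPM in WT and 1218, 1713 and 1592 CPM in KO (log2 fold change -0.71, SE 0.18, adjusted p = 0.185). The groups were separate, although WT line 78 was much nearer to the KO lines than the other WT lines were. The log2 fold change was -0.37 with the low Y-linked lines alone, where WT line 78 is the only WT line. With lane as a term it was -0.62, and Ctsb then had no unadjusted p under 0.05. Ctso, cathepsin O, had 22.4, 19.6 and 21 CPM in WT and 13.6, 16.5 and 14.5 CPM in KO (log2 fold change -0.50, SE 0.11, adjusted p = 0.125). Ctsd, the aspartic protease cathepsin D, had 2589, 2379 and 1576 CPM in WT and 1309, 1782 and 1875 CPM in KO (log2 fold change -0.40, SE 0.23, adjusted p = 0.473). Here WT line 78 lay below KO lines 41 and 72, and with the low Y-linked lines alone the Ctsd difference had the opposite sign, at 0.09.

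The remaining cathepsins had smaller or more variable differences. Ctsa, which also shields beta-galactosidase and neuraminidase, had a log2 fold change of -0.24, Ctsz one of -0.26 and Ctsf one of -0.21. Ctsl and the collagen-degrading Ctsk of osteoclasts and fibroblasts were the 2 cathepsins with the smallest differences, at -0.10 and -0.09. Ctsk ranged over 123, 103 and 183 CPM in WT and 128, 98.4 and 156 CPM in KO. Its groups overlapped throughout. Ctss, described next, starts 17423 bases beyond the end of Ctsk on chromosome 3.

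Ctss, Ctsc and Ctsh are cathepsins whose expression is relatively enriched in macrophages and other leukocytes, although macrophages also express the ubiquitous cathepsins at high levels. Ctss, the cathepsin of antigen presentation, had 250.2, 260.2 and 209 CPM in WT lines 36, 47 and 78 and 158, 165 and 144 CPM in KO lines 33, 41 and 72. Every KO line was lower than every WT line, the KO mean was 64.9% of the WT mean, and the log2 fold change was -0.62 (SE 0.11, adjusted p = 0.0775). Ctsc, the dipeptidyl peptidase, had 193, 190.4 and 241 CPM in WT but 191, 86.1 and 119 CPM in KO (log2 fold change -0.66, SE 0.29, adjusted p = 0.364). KO line 33 was at the level of WT lines 36 and 47, and the other KO lines lay well below.

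Ctsh, an aminopeptidase, had a similar order of the KO lines, with 35.3, 30.9 and 26.4 CPM in WT and 29.4, 18.9 and 20.1 CPM in KO (log2 fold change -0.44, SE 0.20, adjusted p = 0.380). KO line 33 again overlapped the WT lines. With the low Y-linked lines alone the log2 fold change was -0.85 for Ctsc and -0.20 for Ctsh. Without KO line 33 it was -1.02 for Ctsc and -0.66 for Ctsh, and both then had an unadjusted p under 0.05.

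The 3 macrophage-rich cathepsins were then set against the other 43 lysosomal genes within each line. Their mean log2 CPM minus that of the other genes was -0.48, -0.41 and -0.36 in WT lines 36, 47 and 78 and -0.27, -0.97 and -0.95 in KO lines 33, 41 and 72. The difference of the means, KO minus WT, was -0.32, with an SD of 0.06 in WT and 0.40 in KO. KO line 33 lay above all WT lines and KO lines 41 and 72 below them, so the genotypes overlapped. The difference was -0.54 without KO line 33, -0.19 without KO line 41 and -0.21 without KO line 72, so its size depended on single KO lines. With the low Y-linked lines alone it was -0.37. An exact permutation test of 3 lines against 3 cannot give a p under 0.1, and none was computed for this contrast because its genes were chosen with earlier results of these data known.

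Summed, the 3 cathepsins had 479, 482 and 476 CPM in WT and 377, 270.3 and 283 CPM in KO, or 64.8% of WT, where the other 43 genes had 80.2% of WT. Among those 43, Galc (50.1%), Lgmn (58.7%), Laptm5 (59.4%), Ctsb (61.2%), Cln3 (61.8%) and Man2b1 (64.7%) lay below the 64.8%. The rest lay above it, up to 116.7% for Smpd1, so a level this low was not particular to the 3 cathepsins. These summed levels of the 3 cathepsins did not overlap. A wider set that added Ctsz and Laptm5 gave 0.14, 0.19 and 0.15 in WT and 0.20, -0.29 and -0.30 in KO for the same within-line difference. KO line 33 again stood with the WT lines.

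**Figure D3:**
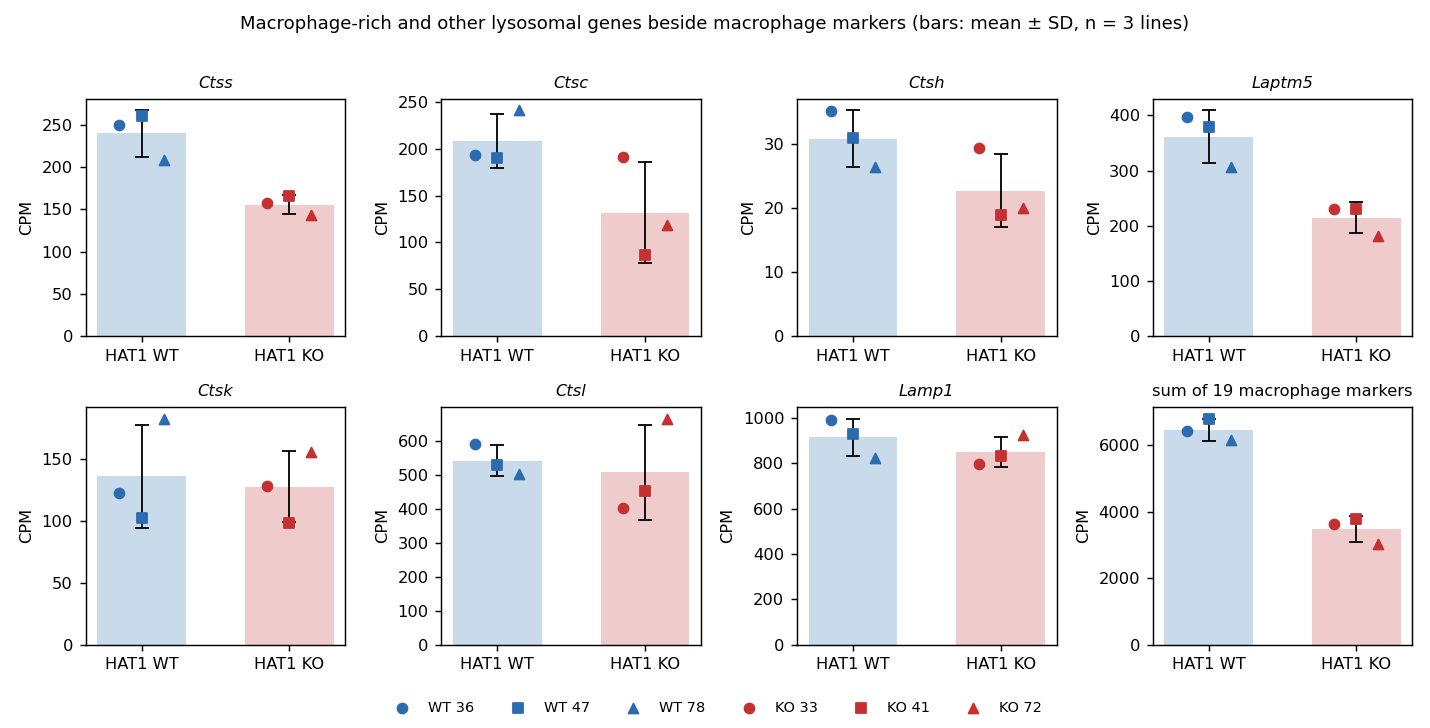
CPM of 4 macrophage-rich lysosomal genes (Ctss, Ctsc, Ctsh and Laptm5), of Ctsk, Ctsl and Lamp1, and of the sum of 19 macrophage marker genes, with 1 point per line and bars for the mean ± SD of 3 lines. The KO lines lie below the WT lines for Ctss, Laptm5 and the marker sum, while KO line 33 overlaps the WT lines for Ctsc and Ctsh.

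Transcripts of macrophages were also lower in KO, though not in the same order over the lines. All 19 macrophage markers were detected in every line and lower on average in KO. Of these, 17 had an unadjusted p under 0.05 (8.77% of all genes were lower at this level) and 9 an adjusted p under 0.05 (0.528% of all genes). Both counts come from the fit of all lines, in which sex is partly confounded with genotype. With lane as a term, only 2 of all tested genes passed the adjusted threshold, and the markers among them were not counted. By lane, 18 of the 19 markers were lower in lane 6 and 19 in lane 7. The summed level of the markers was between 6157 and 6810 CPM in WT and between 3030 and 3767 CPM in KO, or 53.7% of WT. The 6157 CPM were those of WT line 78, the only WT line with low Y-linked counts. Lyz2 alone held 2938 of the mean 6472 CPM in WT and 1462 of the mean 3474 CPM in KO. KO line 33, which stood with the WT lines in the comparison of the cathepsins, had 3623 CPM, and KO line 72, with the highest lysosomal sum of the KO lines, had the lowest marker sum, 3030 CPM. Lyz2, the lysozyme of myeloid cells, had 2812, 3134 and 2868 CPM in WT and 1483, 1623 and 1280.1 CPM in KO (log2 fold change -1.01, SE 0.12, edgeR adjusted p = 0.0357), and Spi1 had a log2 fold change of -0.73 (adjusted p = 0.0357). In bulk RNA, fewer cells of a type and less RNA per cell cannot be told apart, and the part of these markers in the lysosomal values was not tested.

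In 17 of the 19 markers all KO lines, line 33 included, lay below all WT lines, against 12.4% of all genes. For Cx3cr1, the fractalkine receptor of tissue macrophages and a marker picked out after its values were seen, KO line 33 (160.3 CPM) stood with the WT lines (131, 158 and 180.2 CPM) and apart from KO lines 41 and 72 (90.6 and 90.3 CPM). The other overlapping marker, Cd14, had another order of the lines. It had 56.4, 58.0 and 49.8 CPM in WT and 50.4, 29.2 and 71.4 CPM in KO lines 33, 41 and 72. Endothelial markers summed to between 12.3 and 19.6 CPM, with KO at 84.1% of WT on average and overlapping lines. Of the 5, 4 had a lower mean in KO and 1 a higher mean. Pecam1 at 31.9% and Cdh5 at 55.2% of WT were the 2 with an unadjusted p under 0.05 and no overlap (8.77% of all genes were lower at that level). Of the osteoclast markers, Itgb3, which other cells also express, was at 47.2 to 69.2 CPM and Ocstamp did not exceed 0.566 CPM, and summed epithelial markers lay between 1.07 and 2.14 CPM.

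Genes of sphingolipid breakdown had a median log2 fold change of -0.24, with 7 of 8 lower in KO. Galc had 81.3, 77.2 and 55.9 CPM in WT and 28.6, 49.5 and 29.3 CPM in KO, with a KO mean of 50.1% of WT (log2 fold change -0.997, SE 0.26, adjusted p = 0.183). Its groups did not overlap, but the difference was -1.41 in lane 6 and only -0.18 in lane 7, where WT line 78 met KO line 41. Hexa, a subunit of the hexosaminidase that degrades GM2 ganglioside, had a log2 fold change of -0.34, and Neu1, a sialidase, had one of -0.29. Both had non-overlapping groups and an unadjusted p under 0.05.

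Psap, the precursor of the saposins that present lipids to these enzymes, had 1949, 1781 and 1478 CPM in WT and 1330.3, 1422 and 1674 CPM in KO (log2 fold change -0.23, SE 0.14, adjusted p = 0.495). The groups overlapped, and the log2 fold change was 0.01 with the low Y-linked lines alone. Gla (-0.25), the alpha-galactosidase of globotriaosylceramide, Asah1 (-0.21), the acid ceramidase, and Arsa (-0.16), the sulfatase of sulfatides, had log2 fold changes that did not pass either threshold. Smpd1 had a higher mean in KO, at 57.8 ± 2.92 CPM in WT and 67.5 ± 11 CPM in KO, with KO line 72 highest at 80.2 CPM and the groups overlapping.

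All 3 genes of cholesterol release were lower in KO. Npc1, the membrane protein that exports cholesterol from the lysosome, had 176, 169 and 154 CPM in WT and 122, 126 and 123 CPM in KO (log2 fold change -0.43, SE 0.07, adjusted p = 0.0751). The lines of each genotype lay close together and the groups did not overlap. Lipa, the acid lipase that frees cholesterol from its esters, had 336 ± 6.90 CPM in WT and 220.2 ± 40.0 CPM in KO (log2 fold change -0.61, SE 0.13, adjusted p = 0.129). Npc2, the soluble carrier that hands cholesterol to NPC1, had a log2 fold change of -0.15 with overlapping groups.

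Genes of glycosaminoglycan breakdown, the enzymes lost in the mucopolysaccharidoses, had a median log2 fold change of -0.26 and 6 of 6 lower means. Idua, the iduronidase, was at 29.6 ± 1.86 CPM in WT and 22.7 ± 2.69 CPM in KO (log2 fold change -0.38), and Gusb, the beta-glucuronidase, was at 200.3 ± 14.7 and 159.7 ± 1.19 CPM (log2 fold change -0.33). Those 2 had non-overlapping groups and an unadjusted p under 0.05. Naglu (-0.30), Sgsh (-0.22), Arsb (-0.16) and the X-linked Ids (-0.01) did not pass that threshold.

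In glycogen and glycoprotein breakdown the alpha- and beta-mannosidases had larger differences than the other 2 enzymes. Manba had 50.8, 48.2 and 48.8 CPM in WT and 33.3, 35.2 and 38.0 CPM in KO (log2 fold change -0.47, SE 0.07, adjusted p = 0.0626). Man2b1 had 355, 329.9 and 278 CPM in WT and 204, 221 and 199 CPM in KO (log2 fold change -0.63, SE 0.11, adjusted p = 0.0783). Every KO line was below every WT line for both mannosidases. Gaa, the glucosidase of glycogen, and Fuca1, the fucosidase, had log2 fold changes of -0.11 and 0.06 with overlapping groups.

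Cln3, a lysosomal membrane protein lost in juvenile Batten disease, had the smallest p of the 46 genes. It had 16, 16.1 and 14.9 CPM in WT and 9.24, 10.6 and 9.26 CPM in KO (log2 fold change -0.69, SE 0.10, adjusted p = 0.0503), and the KO mean was 61.8% of the WT mean. The groups did not overlap, and the log2 difference was -0.80 in lane 6 and -0.50 in lane 7. Cln3 (chr7:126571207-126585817, GRCm38, minus strand) shares 442 exonic bases with Apobr on the opposite strand, and since the use of strand in counting was not given in the sources used here, reads from the shared bases cannot be told apart. Apobr, a lipoprotein receptor, had 28.1, 28.0 and 28.8 CPM in WT and 22.5, 23.7 and 17.7 CPM in KO (log2 fold change -0.41, SE 0.12, adjusted p = 0.217).

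The other 3 ceroid lipofuscinosis genes were also lower on average. Grn, the granulin precursor that macrophages also secrete, was at 762 ± 117 CPM in WT and 607 ± 11.2 CPM in KO (log2 fold change -0.33) with an unadjusted p under 0.05. Its difference was -0.41 in lane 6 and -0.06 in lane 7. The peptidase Tpp1 and the thioesterase Ppt1 had log2 fold changes of -0.17 and -0.18.

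The 8 membrane proteins had a median log2 fold change of -0.12 and a summed KO level of 92.5% of WT. Laptm5, which is largely restricted to blood cells, was the exception. It had 398, 379 and 307 CPM in WT and 230.3, 231 and 182 CPM in KO (log2 fold change -0.75, SE 0.14, adjusted p = 0.0980), with no overlap. With the low Y-linked lines alone it was -0.50 and no longer had an unadjusted p under 0.05. Its ubiquitous relative Laptm4a had 555, 459.5 and 503 CPM in WT and 491, 510.1 and 536 CPM in KO (log2 fold change 0.02, SE 0.09, adjusted p = 0.942).

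Lamp1, an abundant glycoprotein of the lysosomal membrane, had 991, 929 and 825 CPM in WT and 796, 833 and 926 CPM in KO (log2 fold change -0.10, SE 0.10, adjusted p = 0.691). The groups overlapped, and the sign was opposite with the low Y-linked lines alone (0.06). Lamp2 (-0.10), which serves in autophagy, also had overlapping groups. Scarb2, the receptor that carries glucocerebrosidase, had a log2 fold change of -0.24 and no overlap but just missed an unadjusted p of 0.05. The calcium channel Mcoln1 (-0.19), the cystine exporter Ctns (-0.15) and the tetraspanin Cd63 (0.10) had overlapping groups.

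Tfeb, the transcription factor among the 46 genes, had 11.9, 11.4 and 11.8 CPM in WT and 10.6, 9.76 and 11.8 CPM in KO (log2 fold change -0.12, SE 0.10, adjusted p = 0.623). KO line 72 was at the level of the WT lines. The 5 genes whose promoters are shown with TCACGTGA had a median log2 fold change of -0.25, where the 37 genes with a window but without these letters had -0.22. Of the 5, only Cln3 had an unadjusted p under 0.05, against 13 of the 37. Among the 4 genes with GAGGAAGT the median was -0.48 and 2 (Ctss and Gusb) had an unadjusted p under 0.05, against 12 of the 38 without it. The sets are small and were not tested against each other.

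Levels per length spanned a wide range. In RPKM (CPM divided by the exon length in kilobases), the WT mean ran from 2.06 for Tfeb to 928 for Ctsd, a ratio of 451. Behind Ctsd came Psap (633 RPKM), Ctsb (407), Lamp1 (342) and Laptm4a (285). The WT spreads (SD, n = 3) were 227 RPKM for Ctsd, 87.1 for Psap, 70.3 for Ctsb, 31.3 for Lamp1 and 27.1 for Laptm4a. These spreads are between lines, and the 5 genes kept the same order within each WT line. Ctsd, Ctsb and Psap together held between 33.4% and 41.4% of the lysosomal CPM of a line. Of the macrophage-rich cathepsins, Ctss was at 176 ± 20.2 RPKM in WT, close to the ubiquitous Hexa at 157 ± 21.1, while Ctsc (35.8 ± 4.88) and Ctsh (6.86 ± 0.990) were much lower.

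**Figure D4:**
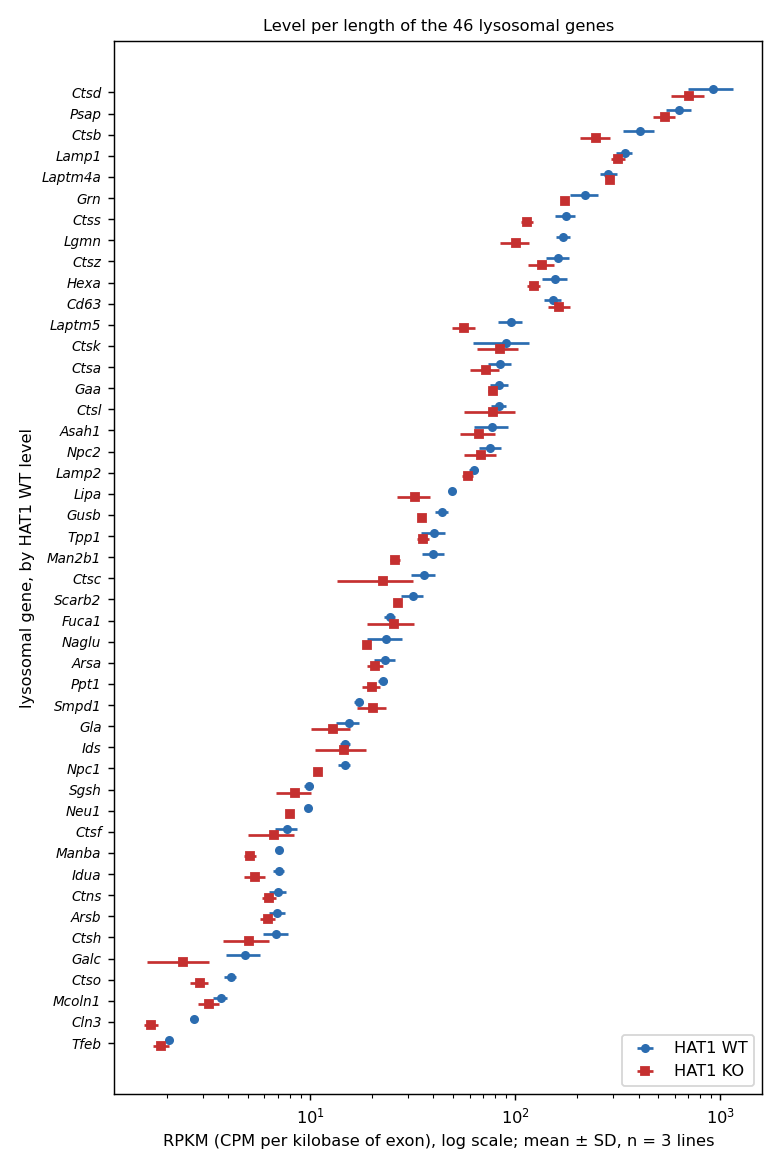
Mean RPKM ± SD over 3 lines for each of the 46 lysosomal genes on a log axis, ordered by the HAT1 WT level, with circles for HAT1 WT and squares for HAT1 KO. The WT means run from 2.06 for Tfeb to 928 for Ctsd, and most KO squares lie to the left of their WT circles.

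Counts of 16 of the 46 genes may include reads of a neighbour, because their exons overlap another annotated gene. Besides Cln3, these were Arsa, Arsb, Ctsa, Ctsb, Ctsd, Ctsl, Ctsz, Galc, Grn, Hexa, Idua, Lamp1, Npc1, Ppt1 and Sgsh. Ctsd shares 808 exonic bases with Gm49369 on the same strand and Ctsl shares 395 with the pseudogene Gm49230, also on the same strand.

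A further 71 genes of the lysosome outside the 46 gave a smaller median difference when pooled, though not in each group. Their median log2 fold change was -0.14, 53 were lower and 18 higher on average, 18 were lower with an unadjusted p under 0.05 and 0 were higher (8.77% and 5.88% of all genes), and with edgeR 0 had an adjusted p under 0.05 (0.528% of all genes). The 20 other hydrolases had a median of -0.22, near the -0.24 of the 46 genes. The medians of the other groups ran from -0.16 for enzyme delivery to 0.03 for cathepsin inhibitors. Of the 20 hydrolases 7 were lower at the unadjusted threshold, among them Gm2a, Ctbs, Dnase2a, Acp2 and Pla2g15. Acp2, a lysosomal acid phosphatase, had 86.6, 82.1 and 87.3 CPM in WT and 60.4, 63.7 and 70.2 CPM in KO (log2 fold change -0.40, SE 0.07, adjusted p = 0.0980).

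Among 9 other membrane proteins 3 met that threshold (Slc17a5, Ostm1 and Lmbrd1), and Slc17a5, the sialic acid exporter, had the smallest adjusted p of the 71 genes (log2 fold change -0.46, adjusted p = 0.0626). Of 18 subunits of the proton pump, Atp6v1a (-0.33) and Atp6v1b2 (-0.25) met it, a share near the 8.77% of all genes. Of 7 genes of enzyme delivery, Igf2r (-0.34), the mannose 6-phosphate receptor, and Gnptab (-0.32), which makes the tag, met it. None of the 4 cathepsin inhibitors did.

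Regulators of lysosomal genes other than Tfeb included 4 of 13 that were lower at the unadjusted threshold, against 8.77% of all genes. Mitf, a relative of TFEB that acts in melanocytes and osteoclasts, had 26.1, 28.8 and 33.7 CPM in WT and 15.5, 19.2 and 18.4 CPM in KO (log2 fold change -0.74, SE 0.13, adjusted p = 0.0843). Tfec, the relative best known from macrophages, had 3.74, 4.17 and 5.49 CPM in WT and 3.56, 2.0 and 2.90 CPM in KO (log2 fold change -0.66, SE 0.27, adjusted p = 0.332). Tfe3 (-0.25) and the GTPase Rragd (-0.91) were the other two. Mitf and Tfec are both expressed in cells of the macrophage lineage, and the part of the macrophage markers in their values was not tested.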

How the data were processed

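The authors deposited unnormalized counts of reads for each gene and library, made from total RNA with the TruSeq RNA v2 kit. The submitters' processing notes name mm10 and edgeR. The aligner, counter and use of strand were not given in the sources used here. The authors' own comparison columns (fold change, CPM, F, p and q) were not used. The 46 genes and the other lists were chosen with earlier results of these data known. Counts were fitted with edgeR 4.0.16 (R 4.3.3): filterByExpr left 14773 of 17512 genes, libraries were scaled by TMM, and glmQLFTest compared genotypes in 3 lines against 3. P-values were adjusted over all 14773 genes (Benjamini-Hochberg), and the threshold was 0.05. SE is the log2 fold change divided by the square root of F. RPKM used GENCODE exon lengths on GRCm38. The lowest count of a lysosomal gene in a line was 660. Values were given in every line for the 8 genes with the smallest p, Ctsc, Ctsh, Ctss, the 5 with the highest RPKM in WT and Tfeb. Galc was added after its values were seen. DESeq2 1.42.0 and limma 3.58.1 (voom) served as alternatives. The code was tested on simulated counts.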

Additional observations from a re-analysis of the deposited data

How the results depend on the processing

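No paired analysis was possible because the genotypes share no replicate numbers. The number of genes at an adjusted p under 0.05 over all genes was 78 and depended on the setting, with 869 by DESeq2, 267 by voom with sample weights, 46 without the filter on low counts, 2 with lane as a term, 0 with the 4 low Y-linked lines, and between 0 and 73 without 1 line (73 without KO line 72, at most 6 without any other). The count of lysosomal genes past that threshold, 0 in the edgeR fit, was 13 by DESeq2, 8 by voom, 1 with library size in place of TMM and 1 with a filter on a mean of 50 counts. The count lower at an unadjusted p under 0.05 was 29 by voom, 7 with the low Y-linked lines, and between 14 and 26 without 1 line. The median log2 fold change of the 46 genes was -0.34 by voom and -0.0635 with the low Y-linked lines. In those lines Ctsd (0.0854), Psap (0.0123) and Lamp1 (0.0609) had the opposite sign. Laptm4a, at 0.02, lay between -0.0381 and 0.0961 without 1 line. For the named genes, 221 of the values kept their sign and their side of the unadjusted threshold, 3 lost it (Ctsb with the lane term and, with Laptm5, in the low Y-linked lines), 11 gained it and 5 changed sign. Halved counts, added after seeing the data, moved none of the counts by over 1.5 times. DESeq2, voom and the lane term gave no value for the 3 cathepsins against the other genes. With 3 lines a genotype, small differences of single genes were not detectable. The low Y-linked lines include WT line 78 as the only WT line, so that fit assumes its spread to be that of the KO lines.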
